A study of Homo sapiens with 25 samples.

Results

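KRT7, KRT8, KRT18 and KRT19 are the keratins of simple epithelia, the single-layered epithelia that line glands, ducts and airways. Keratins build the intermediate filaments of epithelial cells, and a filament needs a type I keratin (here KRT18 and KRT19) paired with a type II keratin (here KRT7 and KRT8). KRT8 and KRT18 form the basic pair of simple epithelium, KRT7 marks glandular and ductal epithelium including the lung, and KRT19 is a short keratin with almost no tail; all are used as markers of adenocarcinoma. These are 4 of the 19974 protein-coding genes of the gene table used. The peaks described overlap the annotated gene body or the 50 kb on each side of it on GRCh38, 767 of the 1257083 peaks of the 20 lists. KRT8 and KRT18 overlap at their ends, so their windows were joined, which gave 3 loci: KRT7, KRT8 with KRT18, and KRT19.

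The data are chromatin immunoprecipitation and sequencing (ChIP-seq) peak lists from 4 established cell lines of human lung adenocarcinoma: HCC364, NCI-H441, NCI-H358 and NCI-H2087. All lines were untreated, grown in RPMI with serum, fixed with formaldehyde and sonicated. NKX2-1 (the homeodomain factor of the lung lineage), H3K27ac (a mark of active promoters and enhancers) and H3K4me1 (a mark of enhancers and promoter flanks) were profiled in each line. NCI-H2087 had in addition FOXA1, FOXA2, SOX2, c-Jun, the acetyltransferase EP300, RNA polymerase II, H3K4me3 (a mark of active promoters) and CTCF, the insulator protein. For each line and antibody there is 1 library, so no comparison below has a replicate check. None has a test, apart from a gap rule used near the end only to flag values for a closer look. The spread over the 4 lines is a spread between lines, and the exact 95% intervals of shares cover counting error only.

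Lists held 7406 (NCI-H2087 EP300) to 121789 (HCC364 H3K4me1) peaks, and their read depth is unknown. As a check of the cell type, H3K27ac was found at most 1 kb from an annotated end of NKX2-1, NAPSA, EPCAM and CDH1 in 4 lines and of SFTPB, a surfactant gene, in 3 (not NCI-H358). The leukocyte gene PTPRC and the endothelial gene PECAM1 had none in any line, but the fibroblast gene COL1A1 had it in 4. The local background that the peak caller set its fold against was raised in NCI-H2087 around KRT8 and KRT18. There it was 3.09 to 5.91 times the library's own median in all 11 NCI-H2087 libraries (median 3.62), against 0.798 to 1.13 times in the 9 libraries of the other lines. Around KRT7 it was 0.994 to 5.72 times the median in NCI-H2087 (median 1.67 over 11 libraries) and 0.795 to 1.07 in the other lines. Around KRT19 it was 0.738 to 1.13 in 10 NCI-H2087 libraries and 0.793 to 1.09 in the others. Some of these ratios rest on few peaks: the 5.72 at KRT7 on 2 H3K4me3 peaks and the 5.91 at KRT8 and KRT18 on 4. That of EP300 at KRT19 rests on 1 peak. A fold is divided by this local background. Its part in the NCI-H2087 results at KRT7, KRT8 and KRT18 was not tested.

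The promoter sequences of RefSeq (GRCh38.p14, 250 bases before to 50 after an annotated start) hold KRT8 and several non-coding neighbours; KRT7, KRT18 and KRT19 are named only. KRT8 is shown because its listed start lies inside a merged region of NKX2-1 peaks, and inside 1 of H3K27ac peaks, of all 4 lines. The promoter of KRT7-AS, an antisense transcript inside KRT7, is shown because 19 of the 20 lists had a peak over it (all but CTCF). That of LINC02874, a non-coding transcript below KRT7, is shown because it holds a searched NKX2-1-type word and lies under NKX2-1 peaks of 4 lines. All are on the minus strand and run 5′ to 3′, and capitals mark matches to the words searched.
KRT8, chr12:52926420-52926719: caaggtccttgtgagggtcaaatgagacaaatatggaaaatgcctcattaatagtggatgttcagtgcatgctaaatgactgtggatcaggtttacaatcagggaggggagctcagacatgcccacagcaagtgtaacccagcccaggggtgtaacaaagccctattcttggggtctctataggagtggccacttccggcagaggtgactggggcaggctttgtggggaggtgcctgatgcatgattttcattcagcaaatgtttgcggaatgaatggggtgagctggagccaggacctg
KRT7-AS, chr12:52247399-52247698: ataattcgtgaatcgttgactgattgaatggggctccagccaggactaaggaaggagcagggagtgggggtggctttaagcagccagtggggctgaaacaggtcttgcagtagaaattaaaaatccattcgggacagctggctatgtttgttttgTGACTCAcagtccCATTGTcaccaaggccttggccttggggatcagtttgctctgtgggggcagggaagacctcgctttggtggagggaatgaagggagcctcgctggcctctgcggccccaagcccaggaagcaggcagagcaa
LINC02874, chr12:52213534-52213833: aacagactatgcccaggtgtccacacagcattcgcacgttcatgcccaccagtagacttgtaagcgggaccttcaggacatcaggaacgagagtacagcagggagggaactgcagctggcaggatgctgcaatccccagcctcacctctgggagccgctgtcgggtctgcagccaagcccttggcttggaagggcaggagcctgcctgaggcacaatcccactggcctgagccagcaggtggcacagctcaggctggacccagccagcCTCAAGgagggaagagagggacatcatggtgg
The words searched on both strands were CACTTGA and CTCAAG (NKX2-1-type), TGANTCA (AP-1, the family of c-Jun), TGTTTAC (forkhead) and ACAATG (SOX). Over all 34961 promoters of the table, 2.49% held CACTTGA, 12.3% CTCAAG, 7.68% TGANTCA, 3.42% TGTTTAC and 10.7% ACAATG. In the KRT7-AS promoter, TGACTCA began 95 bases before the start (position -95) and lay 6 bp from the summit of the NCI-H2087 c-Jun peak. In the same promoter, CATTGT, the opposite strand of ACAATG, began at position -82, and the SOX2 summit was 2 bp from it. In the LINC02874 promoter, CTCAAG began at position 19, 444 bp from the NCI-H2087 NKX2-1 summit. The KRT8 promoter held none of these words, so it has no capitals; that says only that these letters are not in this window. A match is a description of the sequence, not a shown binding site.

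All 4 keratin genes carried the marks of active promoters. H3K27ac was found at most 1 kb from an annotated end of each of them in all 4 lines, as for 49.4% of protein-coding genes. In NCI-H2087 each also had an H3K4me3 peak within 1 kb of an annotated end, as did 65.9% of genes; for KRT8 this is the peak at the end that it shares with KRT18. The H3K4me3 peak with the highest fold at KRT7 (chr12:52232336-52235935) had a fold of 163 over background and covered the lower annotated end of the gene. At KRT19 the corresponding peak (chr17:41525289-41528924, fold 176) covered the upper end. KRT18 had a fold of 195 at its lower end (chr12:52948322-52952133), which covers nearly the whole gene. At KRT8 the peak of fold 169 (chr12:52902272-52905431) lay inside the annotated gene body and not at the listed start, where no H3K4me3 peak was called. These folds exceeded those of 95.6% (KRT7), 96.7% (KRT8), 99.0% (KRT18) and 97.5% (KRT19) of the peaks in the H3K4me3 list. RNA polymerase II peaks at these promoters were wide: 28.2 kb across KRT7 (fold 17.2), 11.5 kb at KRT8 (fold 128), 11.8 kb at KRT18 (fold 81.8) and 9.46 kb at KRT19 (fold 91.5). The polymerase peak at KRT8 had a higher fold than 99.6% of its list, and the one at KRT19 than 99.3%.

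Every locus held many NKX2-1 peaks. At KRT7, NCI-H2087 had 16, while NCI-H358 had 17, NCI-H441 had 22 and HCC364 had 16. The joined KRT8 and KRT18 window, the longest at 155.7 kb, had 23, 22, 35 and 17 in the same lines. KRT19 had 14, 12, 21 and 13. NCI-H441 had the most at each locus, and its NKX2-1 list was also the longest (90578 peaks, against 75657 in NCI-H2087, 75747 in the NCI-H358 list and 87160 in that of HCC364). Counted per gene, the mean over lines was 17.8 ± 2.87 peaks for KRT7, 24.2 ± 7.63 for KRT8, 12.8 ± 3.50 for KRT18 and 15.0 ± 4.08 for KRT19 (SD, n = 4 lines). Depending on the line, 93.0% to 97.3% of protein-coding genes had fewer NKX2-1 peaks than KRT7 and 94.2% to 99.6% had fewer than KRT8. The range was 78.0% to 94.5% for KRT18 and 85.9% to 96.9% for KRT19. At least 1 NKX2-1 region shared by 4 lines lay in the window of each keratin, as in 80.5% of genes.

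NKX2-1 regions around the keratins were shared by the 4 lines more often than NKX2-1 regions at large. Peaks of the 4 lines merged into 78 regions, of which 34 were found in all lines (43.6%, exact 95% interval 32.4% to 55.3%), against 22.3% of all 145799 NKX2-1 regions. By locus the share was 12 of 26 at KRT7 (46.2%), 12 of 33 at KRT8 and KRT18 (36.4%) and 10 of 19 at KRT19 (52.6%). The interval at KRT8 and KRT18 (20.4% to 54.9%) contains the share over all regions. Regions of a single line made up 23 of the 78 (29.5%), against 40.2% of all regions: 16 were found in NCI-H441 only, 5 in NCI-H358, 2 in HCC364 and none in NCI-H2087. The NCI-H441 list was the longest, with a peak in 61.3% of all NKX2-1 regions, against 50.8% to 58.6% for the other lines. The split by line over all single-line regions was not counted, so no trait of the loci is read from this split. The private region with the highest fold was chr12:52228690-52229282 in NCI-H441 (fold 13.1), chr12:52207811-52208275 in HCC364 (fold 9.62) and chr12:52876318-52876943 in NCI-H358 (fold 9.13). Without NCI-H2087, whose background was raised, 34 of 81 regions (42.0%) were found in all 3 remaining lines, against 28.0% of all regions. Without HCC364 the share was 41 of 76 (53.9%), against 32.4%. Among the 20000 strongest peaks of each list it was 7 of 28 (25.0%, interval 10.7% to 44.9%), and the interval then contained the 15.4% of all such regions.

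H3K4me1 regions were shared in the same manner and H3K27ac regions were not. For H3K4me1, 28 of 60 regions (46.7%, interval 33.7% to 60.0%) were found in 4 lines, against 21.2% of all H3K4me1 regions. Those of a single line were 17 of 60 (28.3%), against 46.7% of all. For H3K27ac, 13 of 48 regions (27.1%, interval 15.3% to 41.8%) were found in 4 lines, a share near the 23.9% over all regions. Those of a single line were 18 of 48 (37.5%), against 48.5% of all. Both readings turned with the peaks used: summit windows of 500 bp gave 10.9% of H3K4me1 regions in 4 lines, against 9.54% of all, and the 20000 strongest peaks gave 63.2% of H3K27ac regions (12 of 19), against 29.7%. Measured in base pairs, the lines were closer at the keratin loci for all of these antibodies. The Jaccard index, the length common to a pair of lines over their joint length, averaged 0.661 ± 0.043 for H3K27ac at the keratin loci and 0.441 ± 0.061 over all peaks (SD over 6 pairs of lines, which share lines). For H3K4me1 the index was 0.609 ± 0.080 at the loci and 0.365 ± 0.056 over all peaks, and for NKX2-1 it was 0.499 ± 0.067 and 0.400 ± 0.040. In 6 of 6 pairs it was higher at the keratin loci for each antibody.

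**Figure D1:**
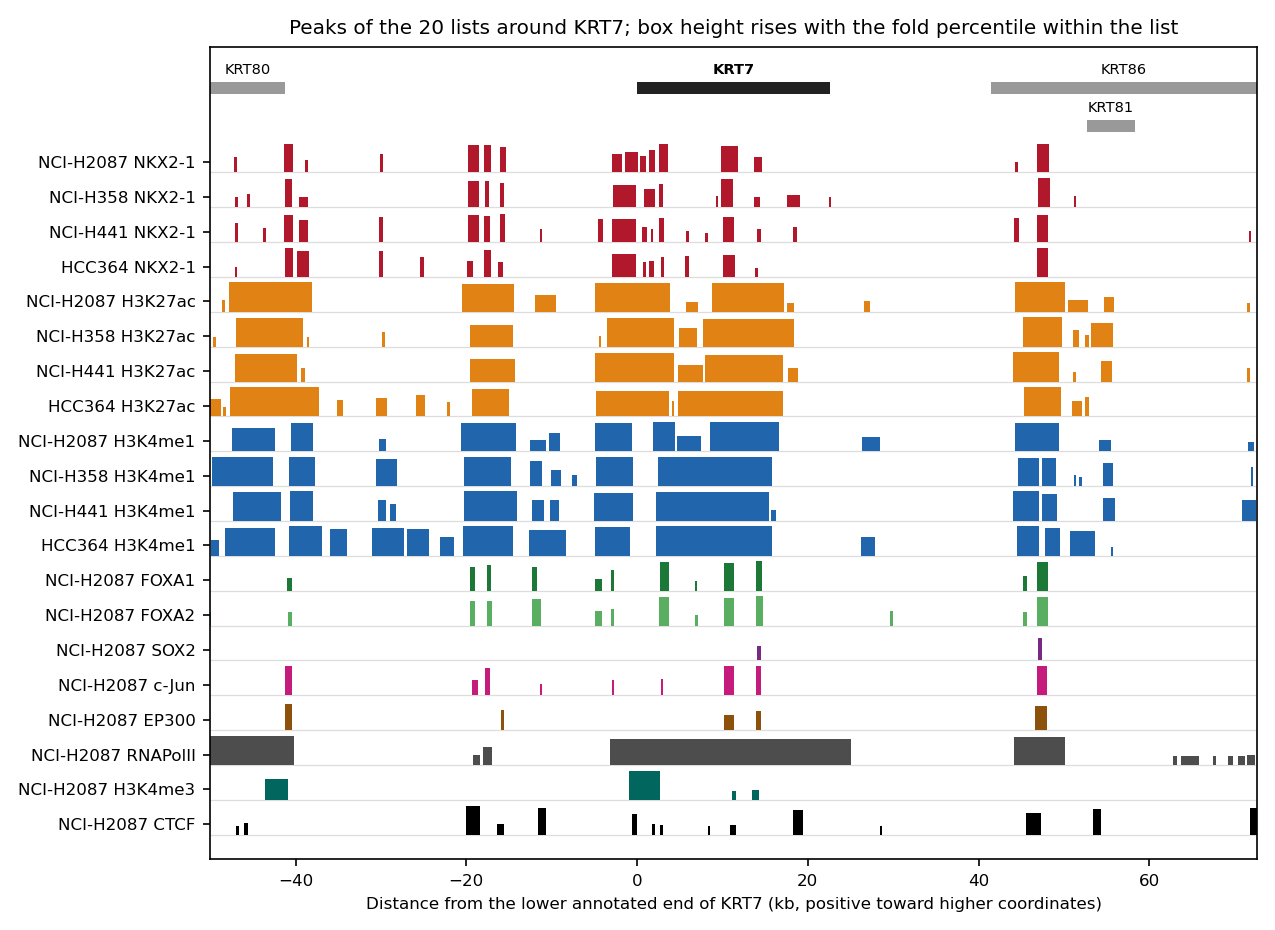
Peaks of the 20 lists around KRT7 by distance from the lower annotated end of the gene (kb). Each row is 1 library, box width is the peak, box height the fold percentile within its list, and gene bodies are drawn above; the shared NKX2-1 regions and the long H3K27ac stretches stand in the same places in all 4 lines.

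At KRT7 acetylation was long and alike in the 4 lines. H3K27ac peaks covered 48.5 kb of the 122.6 kb window in NCI-H2087, while NCI-H358 had 42.9 kb, NCI-H441 had 43.1 kb and HCC364 had 46.6 kb. The median protein-coding gene had 5.08 to 6.77 kb, and 99.3% to 99.97% of genes had a smaller covered share of their window. H3K4me1 covered 45.1, 45.0, 44.8 and 57.8 kb in the same order of lines, longest in HCC364. In the gene body plus 2 kb on each side there were 2 H3K27ac regions, both present in 4 lines, and 10 NKX2-1 regions, 5 of them present in 4 lines. The H3K27ac region over the promoter (chr12:52228341-52237622) had folds of 34.6, 54.5, 42.4 and 14.1 in that order of lines. The intragenic one (chr12:52237983-52252116) had folds of 34.3, 38.4, 23.8 and 15.7. Folds of different libraries rest on different backgrounds, so they are set side by side here and below with no order of lines read from them.

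The leading NKX2-1 regions at KRT7 lay outside its gene body. By mean rank of fold within the lists, the top region was chr12:52280063-52281552, inside the neighbouring hair keratin gene KRT86, where NCI-H2087 had a fold of 29.1, NCI-H358 of 33.9, NCI-H441 of 23.5 and HCC364 of 37.8. Next was chr12:52191838-52192999, at the upper end of KRT80, with folds of 30.2, 26.3, 23.1 and 45.1. Then came chr12:52215271-52216191, in the non-coding gene LINC00592, with folds of 21.3, 15.1, 17.9 and 22.5. Each of these regions carried H3K27ac and H3K4me1 in all 4 lines. Inside KRT7 the region chr12:52243117-52245056 was the highest, with folds of 18.4, 20.1, 16.5 and 11.7. The NKX2-1 region over the lower end of the gene (chr12:52230276-52233299) had folds of 8.85, 10.1 and 13.5 for NCI-H2087, NCI-H358 and NCI-H441, where the list medians were 8.29, 7.78 and 9.14. In HCC364 its fold was higher than that of 69.7% of the list. The KRT7-AS promoter lay in an NKX2-1 region (chr12:52246896-52247830) with low folds of 6.32, 4.25, 6.21 and 3.84. In NCI-H2087 that same promoter had a FOXA1 peak of fold 90.2, higher than 99.4% of the FOXA1 list, a FOXA2 peak of fold 76.4 and a c-Jun peak of fold 28.1, higher than 97.9% of the c-Jun list. The SOX2 and EP300 peaks there had folds of 5.53 and 5.82, and the H3K4me3 peak had a fold of 4.71.

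**Figure D2:**
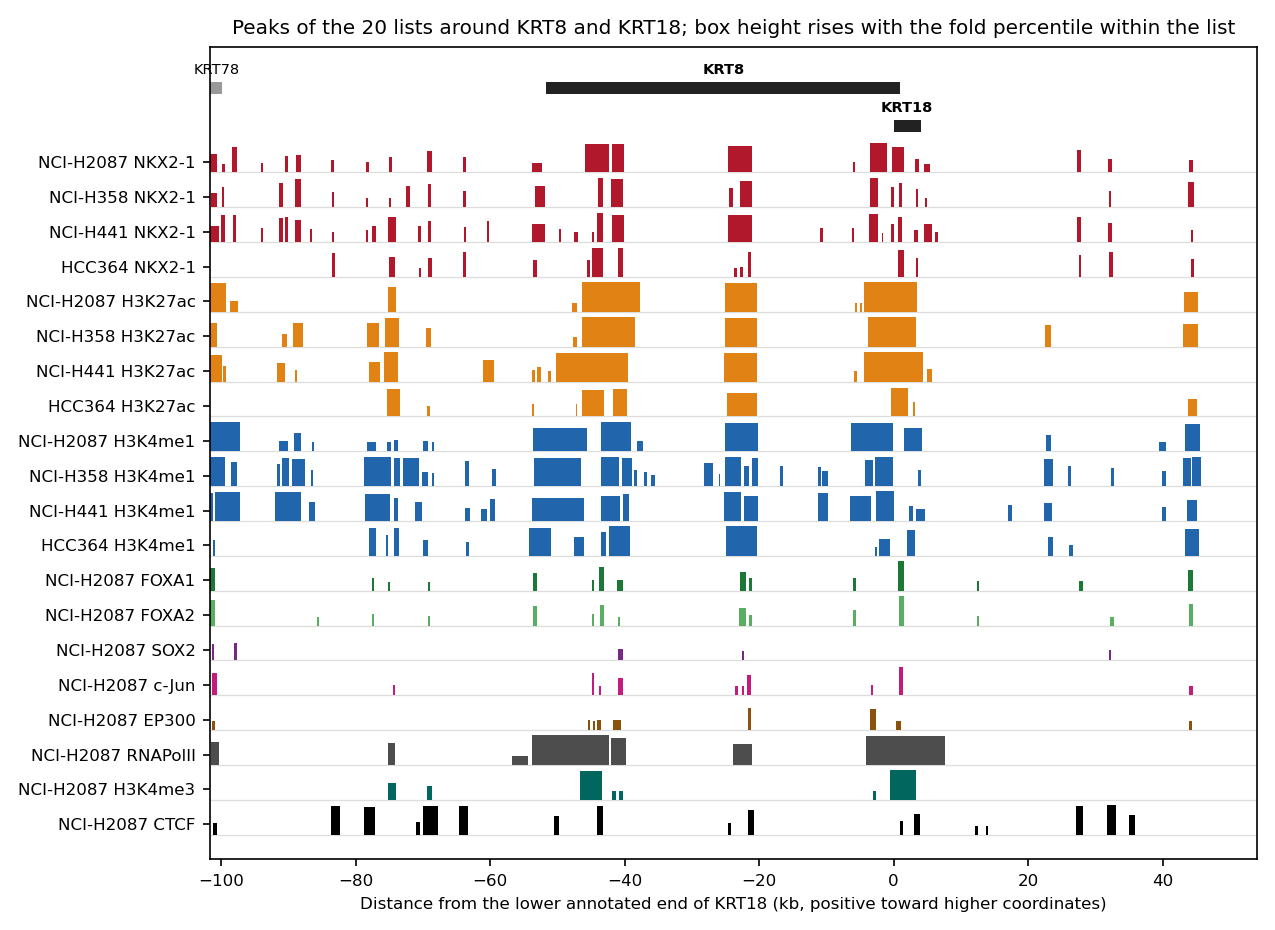
Peaks of the 20 lists around KRT8 and KRT18 by distance from the lower annotated end of KRT18 (kb), drawn as for KRT7. The HCC364 rows are empty for NKX2-1 just below KRT18, where the other 3 lines have a box, and for H3K27ac, where its nearest box lies over the KRT18 end.

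The joined window of KRT8 and KRT18 differed between lines more than that of KRT7, with HCC364 at the low end. H3K27ac covered 16.9 kb of the joined window in HCC364, against 29.3 kb for NCI-H2087, 31.5 kb for NCI-H358 and 36.0 kb for NCI-H441. H3K4me1 covered 23.6 kb in HCC364, against 41.8, 46.5 and 46.0 kb. NKX2-1 peaks covered 10.1 kb in HCC364, against 24.5, 15.6 and 25.8 kb. HCC364 was thus the lowest line for each of these antibodies. The HCC364 H3K27ac list (56384 peaks) and H3K4me1 list were the longest of the 4 lines, and its NKX2-1 list was next to the longest. Read depth is unknown, and its part in the low HCC364 values was not tested. Of the genome's protein-coding genes, 76.7% had a smaller H3K27ac share than KRT8 with KRT18 in HCC364, against 96.6% to 98.4% in the other lines. HCC364 had a peak in 14 of the 33 NKX2-1 regions of this locus (42.4%, interval 25.5% to 60.8%, which contains the 58.6% over all NKX2-1 regions), against 23 for NCI-H2087, 20 for NCI-H358 and 32 for NCI-H441. Of 7 NKX2-1 regions found in 3 lines here, 6 lacked HCC364 (85.7%, interval 42.1% to 99.6%) and 1 lacked NCI-H358. Of the 6, 2 lay in or within 2 kb of KRT18, and the others lay at -48713 to -26437 bp from KRT8, toward KRT78. Over all 24956 NKX2-1 regions found in 3 lines, HCC364 was the line missing in 32.7% and NCI-H358 in 34.4%. At KRT7 and KRT19 only 1 region in all lacked HCC364 alone. The Jaccard index of NKX2-1 at this locus was 0.298 to 0.36 for the 3 pairs with HCC364, against 0.504 to 0.598 for the pairs among the other lines. Over all peaks the HCC364 pairs were also low, at 0.351 to 0.403, against 0.397 to 0.470, and at KRT7 they were at 0.556 to 0.606, against 0.560 to 0.617. At KRT19 the HCC364 pairs were at 0.432 to 0.524, against 0.499 to 0.598, so lower values with HCC364 were not limited to KRT8 and KRT18. A region missing from a list is a peak not called, which does not show that the protein is absent.

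The leading region missing in HCC364 lies less than 1 kb below KRT18, inside the annotated KRT8 body. No NKX2-1 peak and no H3K27ac peak was called there in HCC364 (chr12:52945260-52947923), whereas the other lines had both, and the NKX2-1 fold was 37.8 for NCI-H2087, 30.6 for NCI-H358 and 30.7 for NCI-H441. In those lines it ranked with the leading regions (mean fold percentile 96.5). In the merged H3K27ac region that takes in this place and the KRT18 promoter, HCC364 peaks, none of them in the place itself, summed to 2.92 kb with a highest fold of 25.4. For NCI-H2087, NCI-H358 and NCI-H441 they summed to 7.88, 7.22 and 8.81 kb with folds of 44.6, 70.7 and 82.9. H3K4me1 was still called in HCC364, as peaks of fold 3.22 and 4.54, against highest folds of 9.43 for NCI-H2087, 10.9 for NCI-H358 and 16.4 for NCI-H441. Over the KRT18 end itself (chr12:52948392-52950369) all lines had an NKX2-1 peak, with a fold of 23.4 in HCC364, against 14.8, 12.3 and 16.7. In NCI-H2087 the region below KRT18 held c-Jun (fold 5.77), EP300 (fold 6.26) and RNA polymerase II peaks but no FOXA1, FOXA2 or SOX2 peak. The KRT18 end, in contrast, had a FOXA1 peak of fold 80.7 and a c-Jun peak of fold 19.7.

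The other leading NKX2-1 regions of the locus were found in all lines. The top one, chr12:52902935-52906510, overlapped the H3K4me3 peak of KRT8 and had a fold of 30.3 for NCI-H2087, 36.0 for NCI-H358, 35.3 for NCI-H441 and 41.9 for HCC364. The next, chr12:52906865-52908806, had folds of 24.3, 21.4, 22.6 and 34.5. The third, chr12:52924189-52927843, which contains the listed KRT8 start printed above, had folds of 17.1, 14.8, 20.6 and 15.6. Over the promoter sequence of that listed start 17 of the 20 lists had a peak, all but EP300, H3K4me3 and CTCF. The HCC364 NKX2-1 peak over this sequence had a fold of 4.66, and the 15.6 came from another of its peaks in the region. This HCC364 peak and the H3K4me1 peaks of NCI-H358 and NCI-H441 did not reach the start itself. The c-Jun (fold 4.41) and SOX2 (fold 3.63) peaks over the sequence were among the lowest of their lists, and its FOXA1 peak had a fold of 9.21. H3K27ac there (chr12:52923686-52928501) had similar widths, 4.38 kb in HCC364 against 4.70, 4.63 and 4.79 kb, and folds of 11.4 in HCC364 against 32.2, 50.4 and 37.1. In the KRT8 body plus 2 kb there were 11 NKX2-1 regions, 6 of them in 4 lines, and around KRT18 there were 4, of which 2 were in 4 lines and 2 lacked HCC364.

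**Figure D3:**
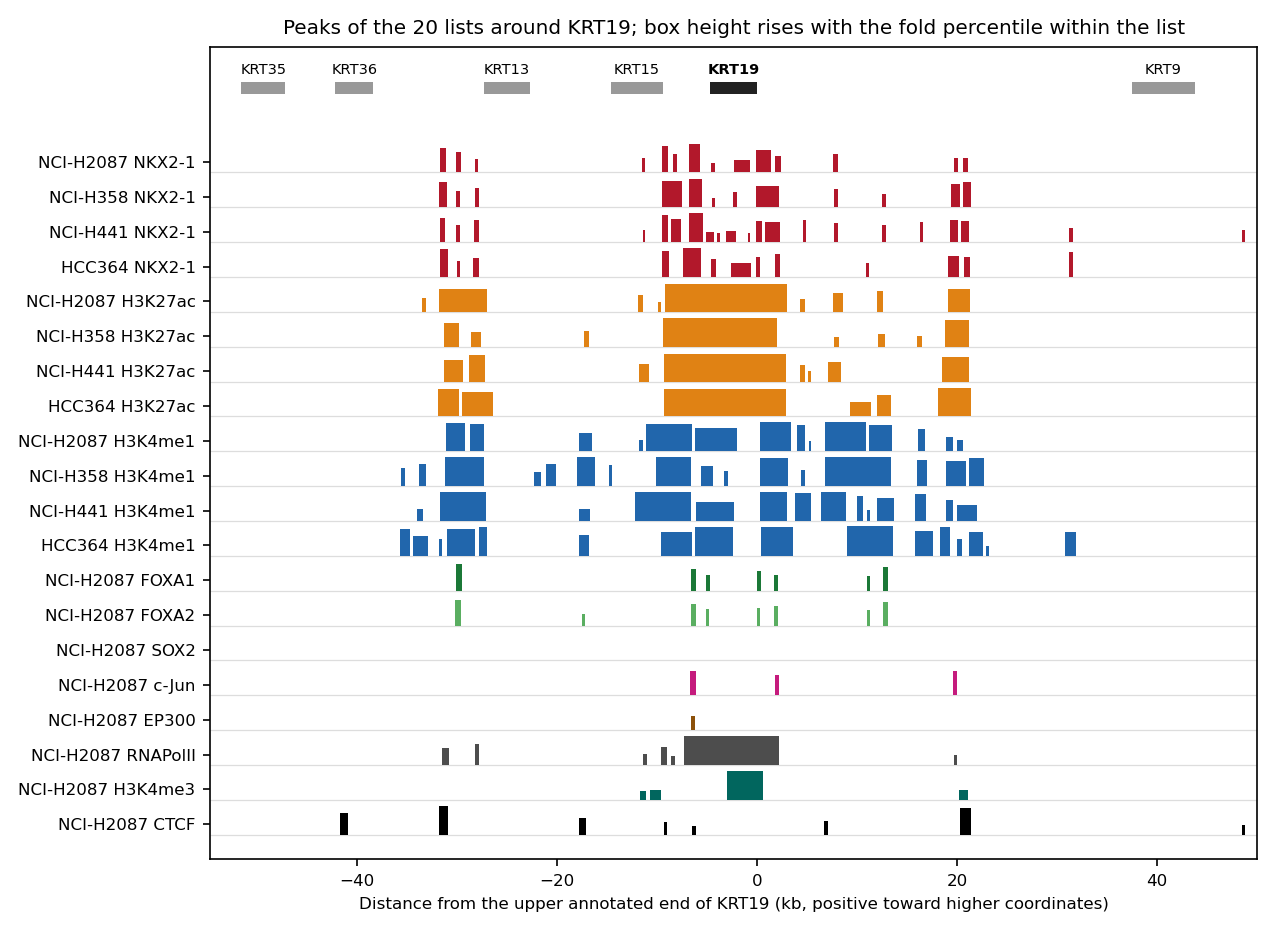
Peaks of the 20 lists around KRT19 by distance from its upper annotated end (kb), drawn as for KRT7. A single H3K27ac box spans the gene and its flank in all 4 lines, the SOX2 row is empty and the EP300 row has 1 box.

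KRT19 lay in 1 long acetylated region present in all lines. The H3K27ac region chr17:41518866-41531266 was 12.1 kb wide in NCI-H2087, while it was 11.4 kb in NCI-H358 and 12.2 kb in both NCI-H441 and HCC364. It reached from beside KRT15, a basal keratin, across the whole of KRT19, with folds of 23.5, 42.7, 27.9 and 20.0. In the whole window H3K27ac covered 22.4, 18.6, 21.5 and 24.2 kb, with HCC364 the highest, and 94.8% to 98.4% of genes had a smaller share. H3K4me1 covered 26.3, 28.3, 29.0 and 28.1 kb. The top NKX2-1 region (chr17:41520927-41522907) lay less than 1 kb below KRT19, with folds of 28.3, 26.4, 33.7 and 45.7. Beside it, chr17:41518798-41520850 had folds of 19.2, 14.9, 21.1 and 18.9. Then came chr17:41496545-41497388, below the mucosal keratin gene KRT13, with folds of 13.3, 12.3, 14.7 and 27.1. At the upper end of KRT19, where H3K4me3 was highest, the NKX2-1 region chr17:41528205-41530668 had lower folds of 10.7, 9.13, 11.3 and 13.2. Of the 5 NKX2-1 regions in the body of KRT19 or within 2 kb of it, 4 were found in 4 lines and the other in NCI-H441 only.

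NKX2-1 peaks at the keratin loci overlapped H3K27ac more often than NKX2-1 peaks at large. In NCI-H2087 41 of 53 did so (77.4%), against 52.5% of all its NKX2-1 peaks. In NCI-H358 43 of 51 did (84.3%), against 51.3%. In NCI-H441 58 of 78 did (74.4%), against 46.4%, and in HCC364 39 of 46 did (84.8%), against 51.6%. The mean was 80.2% ± 5.17 at the loci and 50.4% ± 2.76 over all peaks (SD, n = 4 lines), higher at the loci in 4 of 4 lines. By locus the mean was 94.7% ± 3.82 at KRT7, 93.3% ± 9 at KRT19 and 61.3% ± 6.93 at KRT8 and KRT18, where it was higher than over all peaks in 3 of 4 lines. The order turned when every peak was replaced by a 500 bp window on its summit: 31.6% at the loci, against 36.4% over all peaks. Peaks at the loci were also wider: H3K27ac peaks had a median width of 1315, 1379, 1488 and 1647 bp there, against 944, 1060, 1069 and 1060 bp in the whole lists. The excess of overlap is thus seen with whole intervals and not with summits.

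Overlap with H3K4me1 followed the same course. It was 84.9% in NCI-H2087, against 61.7% of all NKX2-1 peaks. It was 84.3% for NCI-H358, 82.1% for NCI-H441 and 73.9% for HCC364, against 69.0%, 69.6% and 62.6%. With summit windows the order turned here too, to 32.1% at the NCI-H2087 loci, against 43.6%. At KRT8 and KRT18 alone the HCC364 share was 47.1% (8 of 17), lower than its 62.6% over all peaks. Read from the other side, the share of H3K27ac peaks at the loci with an NKX2-1 peak was 56.2% in NCI-H2087 (18 of 32), against 68.5% of all its H3K27ac peaks. It was 69.7% against 68.9% in NCI-H358, 88.2% against 78.5% in NCI-H441 and 66.7% against 66.2% in HCC364. All 4 shares over the whole lists lie inside the intervals of the loci.

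**Figure D4:**
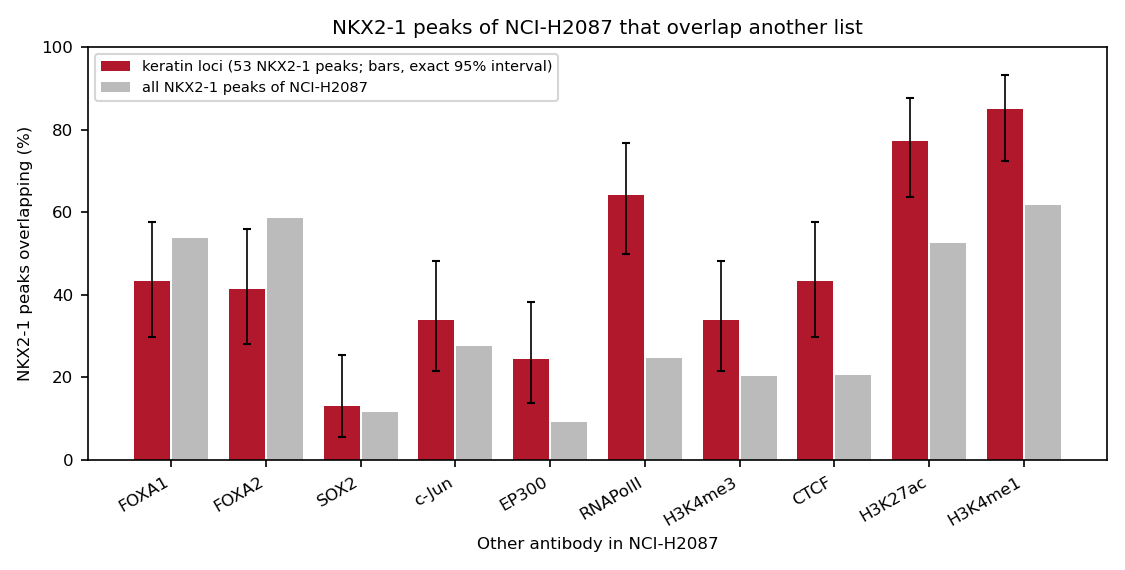
Share of NKX2-1 peaks of NCI-H2087 that overlap a peak of each other antibody (%), at the keratin loci (53 peaks, red, with exact 95% intervals) and over all NKX2-1 peaks (grey). EP300, RNA polymerase II, H3K4me3, CTCF, H3K27ac and H3K4me1 stand above the grey bars beyond the interval, and FOXA2 below. The intervals count each NKX2-1 peak as independent, though several can meet 1 wide peak of the other antibody.

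Among the NCI-H2087 antibodies, NKX2-1 peaks at the keratin loci met EP300, RNA polymerase II and CTCF more often than all NKX2-1 peaks did, and FOXA2 less often. Peaks were dense here: RNA polymerase II covered 25.1% of the loci, CTCF 8.38%, EP300 2.60% and FOXA2 5.33%. The median protein-coding gene window had 1.59%, 2.33%, 0% and 1.46% in the same order. Whether the overlaps differ from what such density gives was not tested. EP300 peaks overlapped 13 of the 53 (24.5%, interval 13.8% to 38.3%), against 9.24% of all. RNA polymerase II overlapped 34 (64.2%, 49.8% to 76.9%), against 24.8%. CTCF, which marks insulators and loop anchors, overlapped 23 (43.4%, 29.8% to 57.7%), against 20.6%, and H3K4me3 overlapped 18 (34.0%, 21.5% to 48.3%), against 20.4%. FOXA2 overlapped 22 (41.5%, 28.1% to 55.9%), against 58.6%, and FOXA1 overlapped 23 (43.4%, 29.8% to 57.7%), against 53.8%, which lies inside the interval. c-Jun overlapped 18 (34.0%) and SOX2 overlapped 7 (13.2%), against 27.6% and 11.6%, both inside the intervals. The intervals count each NKX2-1 peak as independent, although neighbours can meet the same wide peak, so for wide peaks they can be too narrow. The 34 that met RNA polymerase II met 18 of its peaks, 1 of them 28.2 kb wide, and the 41 that met H3K27ac met 18. With 500 bp summit windows the RNA polymerase II share was 22.6% at the loci (interval 12.3% to 36.2%), against 18.2% over all peaks. The FOXA2 difference came inside the interval with the 20000 strongest peaks (45.0%, against 49.3%), at a −log10 q of at least 10 (44.9%, against 59.6%) and with 10 kb windows (52.0%, against 58.6%). That of H3K4me3 did so with summit windows (17%, against 11.5%) and with an overlap of 0.5 of the shorter interval (26.4%, against 19.1%). KRT19 differed from the other loci in having 0 SOX2 peaks and 1 EP300 peak, where KRT7 had 2 and 5 and KRT8 with KRT18 had 5 and 9. The median protein-coding gene had 0 peaks of each, and 44.1% of genes had at least 1 EP300 peak, so KRT19 was ordinary in this. As many EP300 peaks as KRT7 or more were found at 1.26% of genes, and as many as KRT8 or more at 0.0801%. KRT19 also had the lowest NCI-H2087 background of the 3 loci.

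Factor peaks were gathered on few NKX2-1 peaks. Of the 53 NKX2-1 peaks, 25 met none of FOXA1, FOXA2, SOX2, c-Jun and EP300 (47.2%), against 32.1% of all NKX2-1 peaks. All of these factors met at 5 peaks (9.43%), against 3.23% of all, a small count that is not read as an excess. Of these, 2 were at KRT7: chr12:52280063-52281450 inside KRT86 (NKX2-1 fold 29.1), which is also the top shared region of that locus, and the KRT7-AS promoter (fold 6.32). The other 3 were at KRT8 and KRT18: chr12:52906902-52908806 (fold 24.3), the region of the listed KRT8 start (fold 17.1) and chr12:52847231-52848167 at KRT78 (fold 7.99). Meeting is an overlap of at least 1 bp anywhere in the NKX2-1 peak and does not place the factors at a common site. In genome coordinates relative to the listed KRT8 start, the NKX2-1 summit lay at -1640 bp. The SOX2, FOXA1 and FOXA2 peaks over that promoter had summits at 61, 89 and 153 bp. Another 6 peaks met 4 of the 5 factors (11.3%), against 5.87% of all NKX2-1 peaks, also a small count that is not read as an excess. SOX2 was the one missing in each, and SOX2 met only 11.6% of all NKX2-1 peaks. How often SOX2 is the missing factor over all peaks was not counted. The 6 peaks include the H3K4me3-marked regions of KRT8 and KRT18 and the top region of KRT19. Most factor peaks at the loci overlapped an NKX2-1 peak, as they did in the whole lists: 7 of 7 SOX2 peaks, against 96.5% of all, 15 of 15 EP300 peaks, against 96.3%, and 21 of 23 c-Jun peaks (91.3%), against 91.3%. FOXA1 peaks did so in 25 of 34 cases (73.5%), against 60.9%, and FOXA2 peaks in 24 of 37 (64.9%), against 54.4%, both inside the intervals. CTCF peaks did so in 25 of 40 cases (62.5%, interval 45.8% to 77.3%), against 25.3% of all CTCF peaks.

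**Figure D5:**
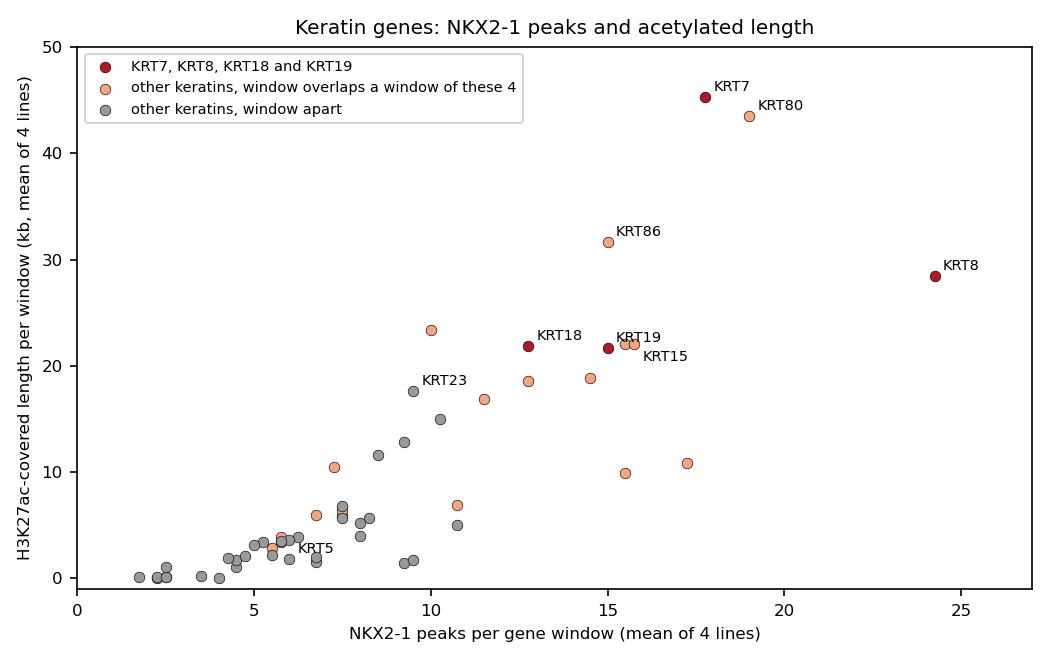
NKX2-1 peaks per gene window and H3K27ac-covered length per window (kb), each the mean of 4 lines, for the 55 keratin genes. KRT7, KRT8, KRT18 and KRT19 (red) lie to the upper right of the keratins whose windows are apart from theirs (grey); neighbours that share regions with them (orange) lie between and beside them.

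The rest of the keratin family gives a comparison within the same gene clusters. The 4 simple epithelial keratins had a median of 16.4 NKX2-1 peaks (mean of 4 lines, range 12.8 to 24.2). KRT8 and KRT18 enter this comparison as 2 genes, although every NKX2-1 peak of the KRT18 window is also counted for KRT8. Taken as 3 loci, the means were 17.8 peaks at KRT7, 24.2 at KRT8 with KRT18 and 15.0 at KRT19, with 45.3, 28.4 and 21.7 kb of H3K27ac. The 33 keratins whose windows do not overlap theirs had a median of 6 (1.75 to 10.8), which is also the median over all protein-coding genes. Acetylated length had a median of 25.2 kb for the 4 genes (21.7 to 45.3), against 2.08 kb (0 to 17.6) for the 33 and 5.99 kb over all genes. Of these 33, 28 had H3K27ac at an end in no line (84.8%), against 34.2% of all genes. Only KRT10, KRT23 and KRT39 had it in 4 lines, and only KRT10 had H3K4me3 in NCI-H2087. The other 18 keratins share regions with the 4 genes and are no independent comparison. These 18 had a median of 11.1 NKX2-1 peaks (5.5 to 19) and 10.7 kb of H3K27ac (2.88 to 43.5), both highest at KRT80. KRT80, KRT86, KRT13, KRT15 and KRT16 among them had H3K27ac at an end in 4 lines, and 9 of the 18 in no line. In NCI-H2087, 4 of the 18 had H3K4me3 at an end. High values in these windows were thus not limited to the 4 genes. KRT5, a basal keratin of stratified epithelium, had 7, 1, 9 and 7 NKX2-1 peaks and H3K27ac at an end in no line.

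Genes with the most similar peak counts over the 20 lists were sought among 10111 protein-coding genes with windows of about the length of those of KRT7, KRT18 and KRT19, more than 200 kb from any member. Likeness was the Euclidean distance of log2(peaks + 1). Nearest to KRT7 was P2RY2, a nucleotide receptor, at 1.39, where the median gene was at 7.75, followed by AVIL, NACC1, LIF and SDC1. P2RY2 had 15 NKX2-1 peaks for NCI-H2087, 13 for NCI-H358, 21 for NCI-H441 and 18 for HCC364. KRT18 was nearest to ID1, an inhibitor of helix-loop-helix factors, at 2.05, with RNF139, SLC25A45 and BCL6 among the next. KRT19 was nearest to TRAPPC4 at 1.21, with its neighbours SLC37A4, CENATAC and RPS25, which share regions with it, and then PPP1R15B. For KRT8 the distances were larger, starting with PPP1R14D at 2.46, with LTBP3, ANXA1 and ZFYVE19 among the next; its own window is longer than theirs.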

How the data were processed

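ChIP-seq peak lists of 20 libraries (25 samples; 5 input libraries were not analysed here) were grouped by the line and antibody in the sample titles. The submitters' processing notes name MACS2 (2.2.7.1 and 2.1.1), Bowtie2 2.2.9, Trimmomatic 0.36, bedtools and SAMtools 1.9, with build GRCh38; the role of each tool, and which library served as control, are not given in the sources used here. The deposited narrowPeak lists were called per library. Column 7 of the deposited lists is the fold of the summit over local background, a linear ratio, columns 8 and 9 are the authors' −log10 p and −log10 q, and column 10 places the summit relative to the start of its peak. The deposited score of column 5 was not used. Folds are the authors' values and were used to describe peaks and to rank them within a list; folds of different libraries are printed side by side, with no order read from them.

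Only chromosomes 1 to 22 and X were kept. Peaks counted at a locus when they overlapped the gene body plus 50 kb on each side (RefSeq gene table of GRCh38.p14, which gives no strand, so annotated ends were used). Peaks of 4 lines were merged when they overlapped by at least 1 bp. Local background was solved from fold and p, within 0.01 of the written −log10 p for 100% of the peaks solved for. Only part of each list was solved for, such as 7864 of the 75657 NCI-H2087 NKX2-1 peaks. The agreement with p is a check of the solving and not of the background itself. Shares have exact Clopper-Pearson 95% intervals. Python 3.11.15, pandas 2.3.3, numpy 2.4.6 and scipy 1.17.1 were used; merging and overlap were tested on simulated data, with bedtools 2.31.1 as a check.

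The members, gene lists, motifs and the rule for named regions were chosen with earlier results of these data known. The rule names, at each locus, the 3 NKX2-1 regions in 4 lines with the highest mean fold percentile, the regions in or within 2 kb of a member, the highest private NKX2-1 region of each line, the NCI-H2087 NKX2-1 peaks with the most factor lists, the 5 most similar genes of each member and the neighbours. Some of the similar genes are not reported here. Some peaks of other antibodies inside these regions, and the region below KRT18 as a subject of its own, were picked after their values were seen. Alternatives were a −log10 q of at least 10, the 20000 strongest peaks of each list, 10 and 100 kb windows, 500 bp summit windows and an overlap of at least 0.5 of the shorter interval; leaving out NCI-H2087 or HCC364 was added after seeing the data.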

Additional observations from a re-analysis of the deposited data

Results flagged for a closer look

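For each of 33 sets of 4 values, 1 per line, the line farthest from the others was set against Dixon's critical gap, and 7 passed. Chance passes about 1 set in 20 where sets are independent. These sets are not, since several that passed are the NCI-H2087 background at nearby loci of chromosome 12, so no excess is read from their number. The local background at KRT8 and KRT18 stood apart in NCI-H2087 for all 3 antibodies: 3.45 times the library median for NKX2-1, against 0.894, 1.03 and 0.884 in NCI-H358, NCI-H441 and HCC364; 3.09 for H3K27ac, against 0.915, 1.06 and 1.04; and 3.81 for H3K4me1, against 0.798, 1.13 and 0.969. At KRT7 the NCI-H2087 H3K4me1 background was 1.67 times its median, against 0.909, 1.01 and 0.927. Also at KRT7, NCI-H441 had 22 NKX2-1 peaks, against 16, 17 and 16 in NCI-H2087, NCI-H358 and HCC364, and HCC364 had 57.8 kb of H3K4me1, against 45.1, 45.0 and 44.8 kb in the other lines. At KRT19 85.7% of NCI-H441 NKX2-1 peaks overlapped H3K4me1, against 92.9%, 91.7% and 92.3%, a difference of few peaks.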

How the results depend on the processing

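Of 103 alternative values, 77 stayed within the interval of the value reported. For covered length, the mean H3K27ac overlap over lines and peaks per gene, this interval was the value ± SD over lines. For the other shares it was the exact 95% interval. Covered length has to change with the window size, so its change there is no check. The 20000 strongest peaks per list gave 81.7 kb of H3K27ac in place of 95.4 kb (sum of the 3 loci, mean of 4 lines), 63.2% of H3K27ac regions in 4 lines in place of 27.1% (29.7% of all regions), 25.0% of NKX2-1 regions in place of 43.6% (15.4% of all), NKX2-1 overlap of 88.5% with H3K27ac in place of 80.2%, and in NCI-H2087 60.0% with EP300, 30.0% with SOX2 and 70.0% with c-Jun (over all such peaks 24.6%, 32.0% and 52.3%). Summit windows of 500 bp gave 10.0% of H3K27ac and 10.9% of H3K4me1 regions in 4 lines (13.3% and 9.54% of all), overlap of 31.6% with H3K27ac, and in NCI-H2087 30.2% with H3K27ac, 32.1% with H3K4me1, 17% with H3K4me3 (11.5% of all) and 22.6% with RNA polymerase II; for H3K27ac and H3K4me1 these lie under the shares over all NKX2-1 peaks (38.3% and 43.6%). Windows of 10 kb gave 56.2 kb, 92.5% with H3K27ac, and in NCI-H2087 92.0% with H3K27ac, 56.0% with H3K4me3 and 92.0% with RNA polymerase II; windows of 100 kb gave 127.8 kb and 74.9%. A −log10 q of at least 10 gave 74.4% with H3K27ac, and an overlap of 0.5 of the shorter interval gave 66.0% with H3K4me1. The median difference in NKX2-1 peaks between the 4 genes and the 33 keratins apart, 10.4, was 4.38 with the strongest peaks, 6.62 at 10 kb and 18.2 at 100 kb. KRT8 and KRT18, which share regions, were counted as separate genes in this difference. Without NCI-H2087 or without HCC364 no value left its interval, and overlaps in NCI-H2087 have no such check. The share of regions in all 3 remaining lines is a different quantity from the share in all 4, so for regions this is a weak check. This overlap was not applied to covered length or to peaks per gene, nor summit windows to covered length. No paired analysis was possible because each line and antibody has 1 library and the peak libraries carry no replicate numbers; within lines, the H3K27ac overlap at the loci minus that of all peaks was 29.8 ± 4.05 percentage points (SD, n = 4 lines). Depth is unknown, so a peak missing from a list can be a peak below the threshold.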

Other observations

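Along chromosome 12 the NCI-H2087 NKX2-1 background in 1 Mb bins, over the library's median, was 1.82 from 51 to 52 Mb, 2.74 from 52 to 53 Mb, the bin with KRT7, KRT8 and KRT18, and 1.44 from 53 to 54 Mb. It was 6.32 from 58 to 59 Mb. In the other lines the bin from 52 to 53 Mb was at 0.816 (NCI-H358), 0.953 (NCI-H441) and 0.903 (HCC364). The simple and gut keratins KRT20 and KRT23, far from the 4 genes in the type I cluster, had 11, 7, 9 and 10 and 11, 11, 7 and 9 NKX2-1 peaks in the 4 lines (NCI-H2087 at the start and HCC364 at the end), with 12.8 and 17.6 kb of H3K27ac (mean of 4 lines). KRT20 had H3K27ac at an end in no line and KRT23 in 4.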
